A study of Mus musculus with 12 samples.

Results

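The stroke response of microglia that lack the Na+/H+ exchanger NHE1 was read from 6 of 12 bulk RNA-seq libraries. Its 6 libraries are the 3 columns of the count table labelled KO and IL and the 3 labelled KO and CL, and were taken by those labels alone. IL stands for the ipsilateral, ischemic hemisphere and CL for the contralateral, non-lesioned hemisphere. The mutant mice, called cKO, were Cx3cr1-CreER+/-; Nhe1f/f, in which tamoxifen-activated Cre deletes the floxed Nhe1 gene in cells that express Cx3cr1. The other 6 libraries came from the same hemispheres of WT mice (3 IL and 3 CL), which were Cx3cr1-CreER+/-; Nhe1+/+ and thus carried the same Cre. In both genotypes a 5-day course of tamoxifen (75 mg/kg) fell between postnatal days 30 and 40, and was followed after 30 days by 60 min of middle cerebral artery occlusion, with cells taken 72 h later. P2RY12-positive cells were pulled out with magnetic beads, so that the cells depended on a surface receptor that microglia can lose when activated. Cx3cr1-CreER is also active in other long-lived macrophages of the brain, and CL cells came from an operated brain and not from a naive one. The study describes 3 animals per group, but no source used here ties the columns of the table to animals, so p-values measure only the spread between these libraries. The cKO libraries are called A, B and C and the WT libraries D, E and F, in the rising order of the number in their column names, which IL and CL share, and values below follow that order.

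Microglia are the resident macrophages of the brain. In healthy tissue they carry a set of homeostatic genes that includes the purine receptor P2ry12. After injury they take up myelin and dead cells, digest them in lysosomes kept acid by the vacuolar proton pump, and handle the cholesterol that this frees by storing it in lipid droplets or exporting it under control of the liver X receptors (LXR). A shared set of such genes, seen around plaques and in demyelination, is called disease-associated microglia. NHE1 pushes protons out of the cell in exchange for sodium and thereby sets the pH of the cytoplasm.

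Levels are given as CPM, the scaled counts of a gene relative to its library. The 3 cKO IL libraries held 43961276 to 47256174 counts and the 3 cKO CL libraries 9743603 to 20349883, so depth and hemisphere cannot be told apart. A count was seen for 30798 to 43351 genes in cKO IL and 39722 to 45073 in cKO CL. Genes of olfactory and other sensory receptors took 0.0398% to 0.0588% of counts in cKO IL and 0.275% to 0.909% in cKO CL, and numbered gene models took 3.32% to 3.97% in cKO IL and 5.11% to 8.83% in cKO CL. The highest shares in cKO CL belonged to library A, which was also the shallowest of the 6. Among the WT libraries, the one labelled IL D held a lower summed level of disease-associated genes than the one labelled CL D (6671 against 8224 CPM) and of monocyte genes (1507 against 8548 CPM), which goes against their labels. Single members of these lists went both ways in D. Apoe had 3227 CPM in WT IL D and 4668 CPM in WT CL D, while Ctsb had 693 and 645 CPM. Among monocyte genes, Lyz2 had 23.2 and 59.6 CPM, while Thbs1 had 271 and 178 CPM. WT CL F held 2091512 counts, the fewest of all 12.

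P2ry12, whose product the sort used (chr3:59216272-59262871 in GRCm38), had 408, 129 and 541 CPM in cKO IL, against 131, 131 and 284 CPM in cKO CL, with overlapping groups (log2 fold change 0.98 ± 0.56 (SE), adjusted p = 0.264).

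Of 35674 genes tested, 1050 rose in cKO IL relative to cKO CL and 183 fell, at an adjusted p under 0.05 in a fit of all 12 libraries (edgeR). These are 2.94% and 0.513% of the genes tested, and for all 1233 the 3 IL values did not overlap the 3 CL values. Without overlap alone, 18.5% of all tested genes lay higher and 35.9% lower in cKO IL. With only the 6 cKO libraries in the fit, 6175 genes rose and 4984 fell, 19.1% and 15.4% of 32414 tested. That fit called 1049 of the 1050 and all 183 in the same direction. In the 12-library fit the counts rested on each CL library: no gene was called in either direction without cKO CL A, 38 rose and 1 fell without CL B, and 33 rose and 1 fell without CL C. Leaving out cKO IL A, B or C left 303, 501 or 494 genes higher and 15, 6 or 12 lower. Without WT CL F 4288 rose and 797 fell, without WT CL D 2626 rose and 312 fell, without both WT libraries D 3151 rose and 435 fell, and without WT IL D and WT IL F the lower calls were 319 and 561. Without WT CL E and WT IL E they were 93 and 98. The 1050 genes stayed positive and the 183 negative in each of the 12 fits that left a library out. As none of them overlapped between IL and CL, their sign could hardly change, and this lends the calls no weight. Within the 6 cKO libraries, leaving out 1 library left 4574 to 5931 genes higher and 2547 to 6714 lower.

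The direction of a change went with the level of the gene. The median log2 fold change (IL over CL) over all tested genes was -1.33, over protein-coding genes -0.45, and over the 4157 genes with a mean of at least 50 CPM 0.94. It was -2.40 for genes under 1 CPM, -1.88 for genes of 1 to 10 CPM, 0.51 for those of 10 to 50 CPM and 0.98 for those of 50 to 200 CPM. Among lincRNAs the median was -2.42, and among processed pseudogenes -2.20. Of the genes that rose, 1026 of 1050 were protein-coding, and of those that fell, 169 of 183. When the scaling factors were taken from the genes of at least 50 CPM alone, the median over all tested genes moved by -1.03 to -2.36 and that over the abundant ones to 0.01, and 224 genes rose and 1039 fell. All of those 224 are among the 1050, and all 183 fell again. Scaling by total counts gave 301 higher and 1127 lower, and RLE scaling 629 higher and 224 lower. A list of genes is therefore described below by its members called, by its median in the main scaling beside -1.33 for all tested genes and 0.94 for abundant ones, and by its median under the abundant-gene scaling. Its called members are to be read beside those of the 4157 abundant genes. Of these, 775 rose in the fit of all libraries and 2444 with the 6 cKO libraries alone, and 3420 were positive.

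**Figure D1:**
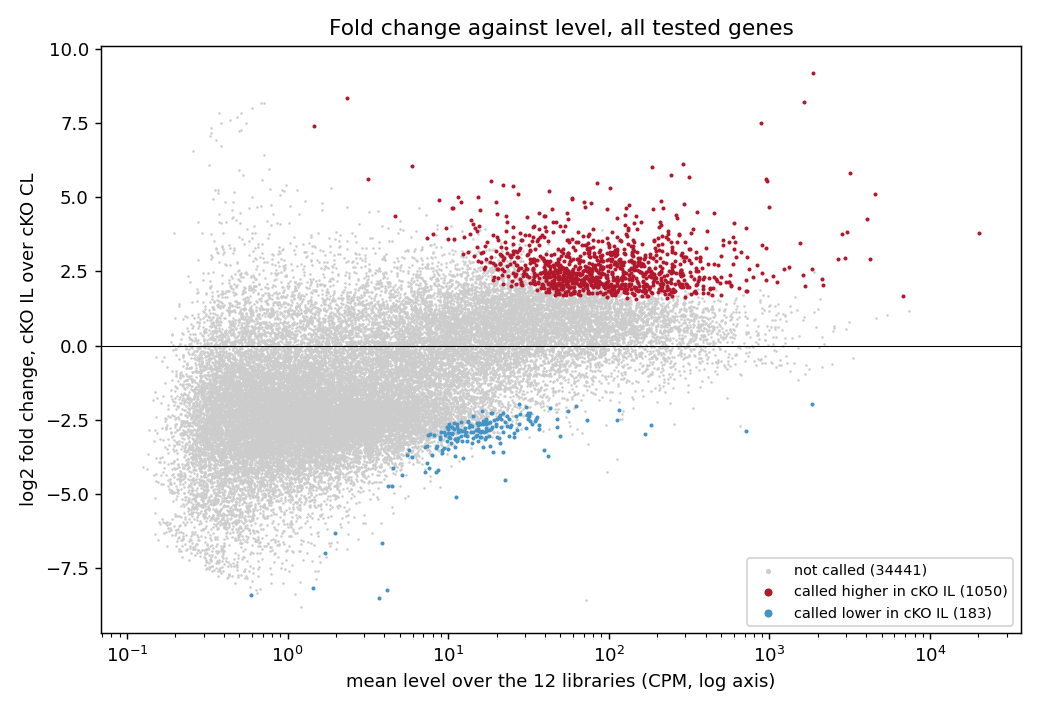
Log2 fold change of cKO IL over cKO CL (vertical) against the mean level over the 12 libraries in CPM (horizontal, log axis) for the 35674 tested genes. The 1050 genes called higher include 1040 with a mean of at least 10 CPM, while 9 of the 183 called lower reach 50 CPM.

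The 15 largest rises among called genes of at least 10 CPM in the IL mean with every IL library above every CL library, numbered gene models aside, ran from 5.21 to 9.21 on the log2 scale. Spp1, the phosphoprotein osteopontin (ENSMUSG00000029304, chr5:104435118-104441050), had 8612, 4326 and 3532 CPM in cKO IL, against 13.1, 3.95 and 10.9 CPM in cKO CL. The lowest IL value was 270.3 times the highest CL value (log2 fold change 9.21 ± 1.50 (SE), adjusted p = 0.0087). Gpnmb, a glycoprotein of the endosome and lysosome (ENSMUSG00000029816, chr6:49036546-49070929), had 4074, 3043 and 4838 CPM in cKO IL, against 16.7, 8.18 and 15.8 CPM in cKO CL (log2 fold change 8.20 ± 1.34 (SE), adjusted p = 0.0087). Fabp5, a cytosolic carrier of fatty acids (chr3:10012548-10016607), had 3451, 1613 and 1498 CPM in cKO IL, against 9.98, 5 and 21.3 CPM in cKO CL (log2 fold change 7.50 ± 1.30 (SE), adjusted p = 0.00912). Lgals3, the sugar-binding protein galectin-3 that marks damaged lysosomes, was the most even of these in IL, with 754, 780.2 and 748 CPM in cKO IL, against 8.38, 5 and 19.2 CPM in cKO CL (log2 fold change 6.13 ± 1.14 (SE), adjusted p = 0.0109).

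Of the 15, 3 more encode secreted proteins of the extracellular matrix. Thbs1, thrombospondin-1, had 13028, 8637 and 3679 CPM in cKO IL, against 56.3, 234 and 161 CPM in cKO CL (log2 fold change 5.81 ± 0.91 (SE), adjusted p = 0.0087), and its IL values differed 3.54-fold among themselves. Tgfbi, a matrix protein induced by TGF-beta, had 3599.8, 3560.1 and 1378 CPM in cKO IL, against 37.7, 69.4 and 64.7 CPM in cKO CL (log2 fold change 5.63 ± 0.84 (SE), adjusted p = 0.0087). Ecm1, extracellular matrix protein 1, had 784, 556 and 249 CPM in cKO IL, against 8.24, 7.68 and 8.34 CPM in cKO CL, the tightest CL group of the 15 (log2 fold change 6.03 ± 0.91 (SE), adjusted p = 0.0087). All 3 were highest in cKO IL A and lowest in cKO IL C.

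Hal, histidine ammonia-lyase, had 664, 808 and 476 CPM in cKO IL, against 15.5, 8.84 and 11.4 CPM in cKO CL (log2 fold change 5.77 ± 0.94 (SE), adjusted p = 0.0087). Pla2g7, which hydrolyses platelet-activating factor and oxidized phospholipids, had 990.0, 499 and 713 CPM in cKO IL, against 12.6, 9.33 and 21 CPM in cKO CL (log2 fold change 5.68 ± 1.06 (SE), adjusted p = 0.0109). Lyz2, lysozyme of myeloid cells, had 3971, 1579 and 1471 CPM in cKO IL, against 32.8, 31.2 and 87.1 CPM in cKO CL (log2 fold change 5.54 ± 1.12 (SE), adjusted p = 0.0135). The other 5, Cxcr4 (the receptor of the chemokine CXCL12), Ifitm1 (an interferon-induced membrane protein), S100a11 (a calcium-binding protein), Chil3 (the chitinase-like protein Ym1) and Ms4a4a (a tetraspan membrane protein of macrophages), rose by log2 fold changes of 5.47, 5.41, 5.40, 5.32 and 5.21. Chil3 spread most among the IL libraries, with 663, 218 and 147 CPM in cKO IL, against 5.63, 9.33 and 10.7 CPM in cKO CL.

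**Figure D2:**
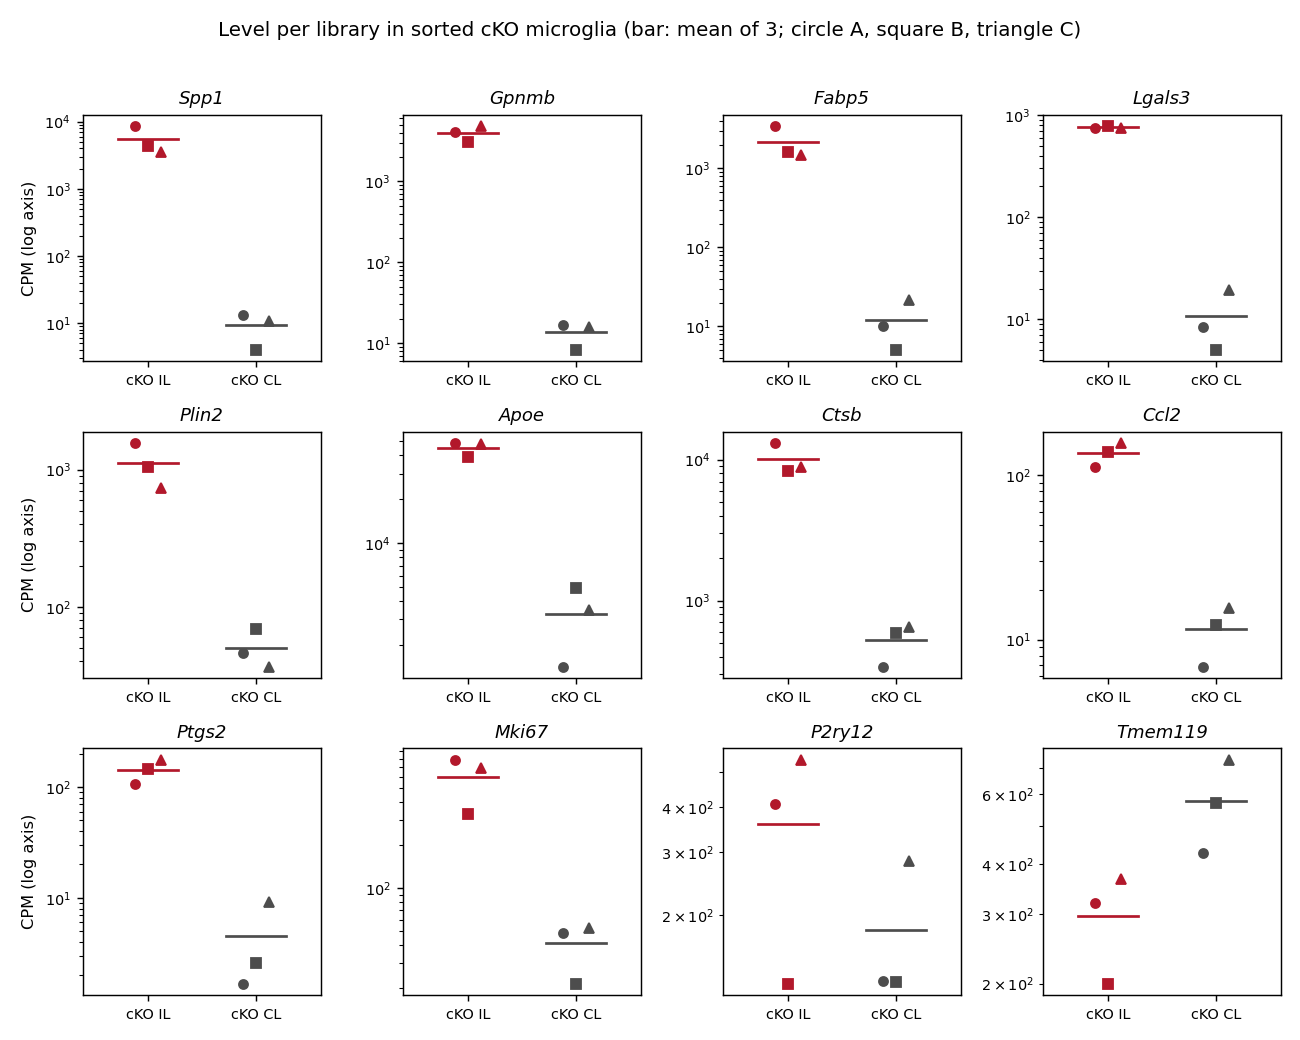
Levels in CPM (vertical, log axes of different ranges) of 12 genes in the 3 cKO IL libraries (left) and the 3 cKO CL libraries (right), with bars at the mean and symbols for the libraries A, B and C. For 10 genes every IL value lies above every CL value, P2ry12 overlaps between the hemispheres, and Tmem119 lies lower in IL without passing the test.

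The promoters of 4 of these genes are shown as examples of those that hold a motif of a factor that myeloid cells use, and were chosen after the matches were seen. They come from RefSeq on GRCm38.p6, run 5′ to 3′ on the gene's strand from 250 bases before its start to 50 after, and carry matches in capitals, on either strand, to TGANTCA (AP-1, the Fos and Jun factors), GAGGAAGT (the core bound by PU.1, the master factor of macrophages), CACGTG (the E-box) or TCACGTGA (a longer E-box close to the CLEAR element of lysosomal genes). Spp1, chr5:104434861-104435160 (plus strand), holds the PU.1 core, the first of 2 listed starts being shown. Gpnmb, chr6:49036268-49036567 (plus strand), holds an AP-1 motif just after its start. Ecm1, chr3:95739520-95739819 (minus strand), holds an AP-1 motif before it. S100a11, chr3:93520246-93520545 (plus strand), holds 3 matches, 1 E-box and 2 AP-1 motifs.
Spp1: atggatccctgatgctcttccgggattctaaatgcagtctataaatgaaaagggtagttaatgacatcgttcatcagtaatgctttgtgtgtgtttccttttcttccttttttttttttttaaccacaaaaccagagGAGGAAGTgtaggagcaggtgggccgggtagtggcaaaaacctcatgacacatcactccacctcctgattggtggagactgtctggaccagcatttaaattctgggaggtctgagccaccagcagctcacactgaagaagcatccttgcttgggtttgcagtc
Gpnmb: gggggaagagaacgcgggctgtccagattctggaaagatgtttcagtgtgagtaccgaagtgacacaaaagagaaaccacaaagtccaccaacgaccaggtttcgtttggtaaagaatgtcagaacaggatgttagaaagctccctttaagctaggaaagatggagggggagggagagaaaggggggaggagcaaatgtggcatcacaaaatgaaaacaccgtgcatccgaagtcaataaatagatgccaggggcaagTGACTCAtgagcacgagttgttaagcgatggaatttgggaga
Ecm1: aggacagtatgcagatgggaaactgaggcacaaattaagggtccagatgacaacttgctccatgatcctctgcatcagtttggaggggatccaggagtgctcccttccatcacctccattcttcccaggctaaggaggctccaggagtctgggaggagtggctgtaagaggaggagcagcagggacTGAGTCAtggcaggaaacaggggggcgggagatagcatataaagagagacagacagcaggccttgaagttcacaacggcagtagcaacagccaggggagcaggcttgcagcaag
S100a11: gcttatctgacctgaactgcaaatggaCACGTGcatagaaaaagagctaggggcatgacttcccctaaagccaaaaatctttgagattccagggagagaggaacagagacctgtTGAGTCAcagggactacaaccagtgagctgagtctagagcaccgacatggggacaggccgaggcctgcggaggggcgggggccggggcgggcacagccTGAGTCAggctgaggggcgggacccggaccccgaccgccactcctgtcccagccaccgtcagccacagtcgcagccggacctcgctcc
Of the 15 genes, 13 had a RefSeq promoter in the table used, of which 5 held at least 1 of these motifs (the 4 shown and Hal) and 8 held none. TGANTCA leaves its middle base open, and the 1 match in Hal reads TGATTCA. Such motifs are common. TGANTCA stood in 6.31% of the 792 promoters of protein-coding genes called higher, in 10.6% of the 113 of genes called lower, and in 6.87% of the 15465 of all tested genes. GAGGAAGT stood in 4.92% of promoters of genes called higher, in 0 of 113 called lower and in 2.85% of all. CACGTG stood in 11.6% of promoters of genes called higher, 7.96% of those called lower and 8.35% of all. TCACGTGA, each match of which holds CACGTG, stood in 2.78% of those called higher, 0 of 113 called lower and 1.34% of all. The median GC content was 60.3% for genes called higher, 60% for genes called lower and 57.7% for all. These shares are descriptions of the letters and show no binding.

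Most genes of disease-associated microglia rose, while most genes of homeostatic microglia did not pass the test. Of 25 disease-associated genes, 18 rose in the 12-library fit and 23 with the 6 cKO libraries alone (where 0 fell), against 2.94% and 19.1% of all tested genes. Among the 4157 genes of at least 50 CPM, 775 and 2444 rose in these fits. All 25 were positive, with a median of 3.30 (2.38 under abundant-gene scaling, with 12 higher and 0 lower). Apoe, the lipid carrier that was the most abundant of them, had 48844, 39156 and 47756 CPM in cKO IL, against 1418, 4912 and 3508 CPM in cKO CL (log2 fold change 3.79 ± 0.87 (SE), adjusted p = 0.0235). Its lowest CL value, in library A, was 3.46 times below its highest. Ctsb, the lysosomal protease cathepsin B, had 13176, 8379 and 8809 CPM in cKO IL, against 339, 588 and 648 CPM in cKO CL (log2 fold change 4.27 ± 0.74 (SE), adjusted p = 0.00912). Ctsl, cathepsin L, had 1113, 782 and 1102 CPM in cKO IL, against 72.2, 118 and 115 CPM in cKO CL (log2 fold change 3.30 ± 0.57 (SE), adjusted p = 0.00912). Trem2, the lipid-sensing receptor on which the disease-associated state depends in mouse models of plaques, was named after its values were seen. It had 321, 152 and 245 CPM in cKO IL, against 76.3, 88.7 and 143 CPM in cKO CL, apart but not past the test (log2 fold change 1.22 ± 0.45 (SE), adjusted p = 0.122), which places it well under the list's median.

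Of 20 homeostatic genes, 1 rose and none fell (5 higher and 0 lower in the 6 libraries alone), with a median of -0.12 (-1.03, with 0 called higher and 4 lower, under abundant-gene scaling). Olfml3 and Fcrls, both marker genes of mouse microglia, lay higher in every IL library, at log2 fold changes of 1.66 and 1.75, without passing the test (adjusted p = 0.0982 and 0.114). Siglech, a sialic acid-binding receptor, stood lower, with 199.6, 67.7 and 182 CPM in cKO IL, against 305, 403 and 479.8 CPM in cKO CL (log2 fold change -1.40 ± 0.55 (SE), adjusted p = 0.141). Tmem119, a surface protein of microglia named after its values were seen, stood lower as well, with 319.6, 199.98 and 367 CPM in cKO IL, against 426, 572 and 734 CPM in cKO CL (log2 fold change -0.97 ± 0.47 (SE), adjusted p = 0.212). Both groups of values lay apart, and 8 of the 20 genes were positive. The summed level of the 20 homeostatic genes was 8287 to 16173 CPM in cKO IL and 9592 to 18281 CPM in cKO CL, overlapping, and the lowest cKO IL value belonged to library B, which also had the lowest P2ry12. In bulk libraries, fewer cells of a type and less RNA per cell cannot be told apart.

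The lipid genes that rose in the 12-library fit were genes of uptake, storage and export, and none of sterol synthesis was called in that fit. Of 20 genes of lipid droplets and fatty acid uptake, 5 rose (15 higher and 1 lower in the 6 libraries alone), with a median of 2.15 (1.20 under abundant-gene scaling, with 5 higher and 1 lower). Plin2, the coat protein of lipid droplets, had 1571, 1054 and 737 CPM in cKO IL, against 45.9, 69 and 36.4 CPM in cKO CL (log2 fold change 4.47 ± 0.73 (SE), adjusted p = 0.0087). Msr1, a scavenger receptor for modified lipoprotein, had 771, 581 and 376 CPM in cKO IL, against 10.6, 29.1 and 19.1 CPM in cKO CL (log2 fold change 4.88 ± 0.83 (SE), adjusted p = 0.00912). Soat1, which esterifies cholesterol for storage, had 777, 715 and 641 CPM in cKO IL, against 37.1, 61.7 and 89.4 CPM in cKO CL (log2 fold change 3.50 ± 0.65 (SE), adjusted p = 0.0109). None of the 3 overlapped, and the lowest IL value was 7.17 (Soat1) to 12.9 (Msr1) times the highest CL value. Members of this list were called only somewhat more often than abundant genes.

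Of 16 LXR targets and cholesterol export genes, 8 rose (13 higher and 0 lower in the 6 libraries alone), with a median of 2.10 (1.20 under abundant-gene scaling, with 3 higher and 0 lower). RLE scaling called 4 of them higher and total counts 3. Abca1, which loads cholesterol onto apolipoproteins, had 3654, 3424 and 2570.1 CPM in cKO IL, against 446, 788 and 633 CPM in cKO CL (log2 fold change 2.37 ± 0.47 (SE), adjusted p = 0.0131). Abcg1, which exports it to lipoprotein particles, had 515, 445 and 411 CPM in cKO IL, against 80, 106 and 81.1 CPM in cKO CL (log2 fold change 2.36 ± 0.56 (SE), adjusted p = 0.0281). Nceh1, which frees cholesterol from its stored esters, had 430.5, 309.9 and 225 CPM in cKO IL, against 14.7, 8.78 and 14.8 CPM in cKO CL (log2 fold change 4.65 ± 0.90 (SE), adjusted p = 0.0123). None of the 3 overlapped between the hemispheres.

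Of 20 genes of sterol synthesis and its control, 0 were called in either direction by edgeR in the 12-library fit, with 2 at an unadjusted p under 0.05 (DESeq2 0 higher and 1 lower, voom 6 higher and 1 lower). The 6 libraries alone gave 8 higher and 0 lower. Their median was 0.20, and it turned to -0.72 under abundant-gene scaling, with 0 higher and 1 lower. Insig1, which holds back sterol synthesis, had 47.2, 39.8 and 35.9 CPM in cKO IL, against 14.4, 19.1 and 24.8 CPM in cKO CL (log2 fold change 1.07 ± 0.54 (SE), adjusted p = 0.221). Lss, lanosterol synthase, lay the other way, with 9.78, 8.2 and 5.33 CPM in cKO IL, against 22.3, 14.7 and 22.9 CPM in cKO CL (log2 fold change -1.36 ± 0.59 (SE), adjusted p = 0.174). With the 6 cKO libraries alone, 8 of the 20 rose and 0 fell.

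Of 22 phagocytosis and scavenger receptor genes, 6 rose (16 higher and 1 lower in the 6 libraries alone), with a median of 1.41 (0.49 under abundant-gene scaling, with 4 higher and 0 lower). Cd68, a glycoprotein of the lysosomal membrane, had 1865, 1393 and 1924 CPM in cKO IL, against 67.9, 145 and 122 CPM in cKO CL (log2 fold change 3.95 ± 0.63 (SE), adjusted p = 0.0087). Cd93, a receptor linked to the removal of dying cells, had 1055, 748 and 482 CPM in cKO IL, against 14.4, 23.8 and 45.1 CPM in cKO CL (log2 fold change 4.78 ± 0.85 (SE), adjusted p = 0.0102). Cd14, the co-receptor for lipopolysaccharide, had 1146, 796 and 695 CPM in cKO IL, against 82.6, 159 and 192 CPM in cKO CL (log2 fold change 2.60 ± 0.52 (SE), adjusted p = 0.0131). In the whole list 20 of 22 genes were positive, against 3420 of the 4157 abundant genes. Its members were called somewhat more often than abundant genes, of which 775 rose, and 2444 with the 6 libraries alone. Of 18 complement genes, 6 rose (11 higher and 0 lower in the 6 libraries alone), with a median of 1.22 (0.31 under abundant-gene scaling, with 2 higher and 0 lower). RLE scaling called 4 of them higher, total counts 2, and DESeq2 6 higher and 2 lower. C3ar1, the receptor of the fragment C3a, had 1114, 592 and 786 CPM in cKO IL, against 32, 68.5 and 78.7 CPM in cKO CL (log2 fold change 3.80 ± 0.64 (SE), adjusted p = 0.00912). C5ar1, the receptor of C5a, had 275, 114 and 98.4 CPM in cKO IL, against 24.7, 40 and 20.4 CPM in cKO CL (log2 fold change 2.52 ± 0.52 (SE), adjusted p = 0.0151). Cfp, properdin, which stabilises the alternative pathway, had 132, 126 and 46.9 CPM in cKO IL, against 5.16, 5.76 and 3.95 CPM in cKO CL (log2 fold change 4.36 ± 0.85 (SE), adjusted p = 0.0129).

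Of 32 lysosomal hydrolases and membrane proteins, 19 rose and all 32 were positive (28 higher and 0 lower in the 6 libraries alone), with a median of 2.12 (1.16 under abundant-gene scaling, with 10 higher and 0 lower). Gusb, beta-glucuronidase, had 607, 354 and 402 CPM in cKO IL, against 53.3, 86 and 74.4 CPM in cKO CL (log2 fold change 2.67 ± 0.50 (SE), adjusted p = 0.0109). Tpp1, a peptidase, had 458, 248 and 284 CPM in cKO IL, against 32.6, 42.6 and 59.6 CPM in cKO CL (log2 fold change 2.88 ± 0.54 (SE), adjusted p = 0.0109). Lamp2, a protein of the limiting membrane, had 760.3, 507 and 743 CPM in cKO IL, against 45.4, 85.9 and 122 CPM in cKO CL (log2 fold change 2.99 ± 0.59 (SE), adjusted p = 0.0131). Each of the 3 was lowest in cKO CL A. Among 16 cathepsins, legumain and their inhibitors, 11 rose (13 higher and 0 lower in the 6 libraries alone), with a median of 2.28 (1.36 under abundant-gene scaling, with 6 higher and 0 lower). Ctsz and Ctsc, 2 exopeptidases of this family, rose by 2.32 and 2.78 on the log2 scale (adjusted p = 0.0151 and 0.0163).

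Of 17 subunits and accessory proteins of the vacuolar proton pump, which acidifies lysosomes, 10 rose and all 17 were positive (14 higher and 0 lower in the 6 libraries alone), with a median of 2.23 (1.27 under abundant-gene scaling, with 2 higher and 0 lower). Atp6v1a, the catalytic subunit, had 379, 274 and 278.2 CPM in cKO IL, against 35.9, 58.5 and 49.5 CPM in cKO CL (log2 fold change 2.69 ± 0.51 (SE), adjusted p = 0.0117). Atp6ap2, an accessory protein, had 198, 154 and 173 CPM in cKO IL, against 8.78, 29.1 and 22.9 CPM in cKO CL (log2 fold change 3.11 ± 0.66 (SE), adjusted p = 0.0165). Atp6v1b2, another subunit of the cytosolic part, had 294, 249 and 240.4 CPM in cKO IL, against 26.9, 48 and 64.9 CPM in cKO CL (log2 fold change 2.49 ± 0.62 (SE), adjusted p = 0.0321). None of the 9 genes of Na+/H+ exchangers was called by edgeR in the 12-library fit, with 3 at an unadjusted p under 0.05 (DESeq2 0 higher and 1 lower, voom 0 higher and 4 lower). In the 6 libraries alone edgeR called 3 higher and 3 lower. Their median was 0.01, which turned to -0.89 under abundant-gene scaling, with 0 higher and 1 lower. Slc9a2, an isoform of epithelia, had 1.8, 2.04 and 3.7 CPM in cKO IL, against 15.8, 12 and 17.9 CPM in cKO CL (log2 fold change -2.59 ± 0.87 (SE), adjusted p = 0.0935). Slc9a3, which takes up sodium in kidney and gut, had 3.5, 4.41 and 1.56 CPM in cKO IL, against 17.6, 8.56 and 12 CPM in cKO CL (log2 fold change -2.01 ± 0.95 (SE), adjusted p = 0.198). Both lay in the range of low levels where most genes were lower in IL.

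Of 21 chemokine genes, 5 rose (14 higher and 0 lower in the 6 libraries alone), with a median of 1.83 (0.99 under abundant-gene scaling, with 1 higher and 0 lower). RLE scaling called 3 of them higher and total counts 2. Ccl2, which draws CCR2-positive monocytes, had 112, 139 and 157 CPM in cKO IL, against 6.83, 12.2 and 15.5 CPM in cKO CL (log2 fold change 3.56 ± 0.66 (SE), adjusted p = 0.0109). Cxcl2, which draws neutrophils, had 319, 287 and 184 CPM in cKO IL, against 23.7, 56.5 and 43.3 CPM in cKO CL (log2 fold change 2.67 ± 0.68 (SE), adjusted p = 0.0337). Ccl6 and Ccl9, both CC chemokines of mouse myeloid cells, rose by 3.82 and 3.04 on the log2 scale (adjusted p = 0.0182 and 0.022). Of 25 cytokine and NF-kB feedback genes, 4 rose (9 higher and 0 lower in the 6 libraries alone), and the median of 0.43 turned to -0.50 under abundant-gene scaling, with 1 higher and 0 lower. Ptgs2, the inducible cyclooxygenase, had 107, 145 and 177 CPM in cKO IL, against 1.68, 2.58 and 9.22 CPM in cKO CL (log2 fold change 4.98 ± 0.90 (SE), adjusted p = 0.0102). Il1b, the cytokine interleukin-1 beta, had 217, 169 and 184 CPM in cKO IL, against 20.4, 44 and 52.5 CPM in cKO CL (log2 fold change 2.29 ± 0.57 (SE), adjusted p = 0.0326). Il1rn, its receptor antagonist, had 74.1, 78.5 and 48.8 CPM in cKO IL, against 11.7, 7.52 and 6.31 CPM in cKO CL (log2 fold change 2.98 ± 0.69 (SE), adjusted p = 0.0241). Arg1, arginase 1, a gene of wound-healing macrophages, had 226, 252 and 46.7 CPM in cKO IL, against 9.31, 2.14 and 6.91 CPM in cKO CL (log2 fold change 4.84 ± 1.30 (SE), adjusted p = 0.0416), and its lowest IL value was in library C. The 4 called members include both mediators of inflammation and genes that restrain it. Among the 4157 genes of at least 50 CPM, 775 rose in the 12-library fit and 2444 in the 6 libraries alone. Cytokine and feedback genes were thus called no more often than abundant genes, and chemokine genes about as often.

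Of 24 interferon-induced genes, 8 rose (23 higher and 0 lower in the 6 libraries alone) and all 24 were positive, with a median of 2.59 (1.60 under abundant-gene scaling, with 1 higher and 0 lower). Ifi207, of the PYHIN family of nucleic acid sensors, had 176, 184 and 153 CPM in cKO IL, against 12.4, 34.8 and 17.9 CPM in cKO CL (log2 fold change 2.98 ± 0.59 (SE), adjusted p = 0.0131). Ifit2, which restricts viral RNA, had 62.1, 88.2 and 199 CPM in cKO IL, against 10.3, 4.61 and 11.5 CPM in cKO CL (log2 fold change 3.72 ± 0.88 (SE), adjusted p = 0.0275). Rsad2, the antiviral enzyme viperin, had 45.3, 37.8 and 56.9 CPM in cKO IL, against 6.9, 2.31 and 7.7 CPM in cKO CL (log2 fold change 3.05 ± 0.77 (SE), adjusted p = 0.0337). The summed level of the list was 1136 to 2166 CPM in cKO IL and 246 to 344 CPM in cKO CL, and was highest in cKO IL C.

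Of 11 genes of MHC class II presentation, 5 rose (9 higher and 0 lower in the 6 libraries alone), with a median of 1.93 (0.87 under abundant-gene scaling, with 4 higher and 0 lower). H2-Ab1, a chain of the class II molecule, had 1747, 2358 and 653 CPM in cKO IL, against 71.8, 86.3 and 215 CPM in cKO CL (log2 fold change 3.67 ± 0.69 (SE), adjusted p = 0.0117). Cd74, its invariant chain, had 2201, 1677 and 1059 CPM in cKO IL, against 91.3, 174 and 351 CPM in cKO CL (log2 fold change 3.0 ± 0.59 (SE), adjusted p = 0.0131). Ifi30, a lysosomal thiol reductase for antigen processing, had 573, 393 and 240.3 CPM in cKO IL, against 49.9, 72.5 and 72.6 CPM in cKO CL (log2 fold change 2.63 ± 0.51 (SE), adjusted p = 0.0123). For H2-Ab1 and Cd74 the lowest IL and the highest CL value both came from libraries C. Of 15 class I genes, 4 rose (12 higher and 0 lower in the 6 libraries alone), with a median of 1.42 (0.43 under abundant-gene scaling, with 2 higher and 0 lower). B2m, the light chain, had 997, 615 and 1275 CPM in cKO IL, against 38.4, 62.6 and 96.8 CPM in cKO CL (log2 fold change 3.87 ± 0.78 (SE), adjusted p = 0.0131). Psmb8, a subunit of the immunoproteasome, had 109, 88.6 and 92.7 CPM in cKO IL, against 16.6, 20.3 and 23.7 CPM in cKO CL (log2 fold change 2.26 ± 0.51 (SE), adjusted p = 0.0208). Class I genes were called only somewhat more often than abundant genes.

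Of 76 cytosolic ribosomal proteins, 63 rose (75 higher and 0 lower in the 6 libraries alone) and all 76 were positive, with a median of 2.85 (1.92 under abundant-gene scaling, with 11 higher and 0 lower). Rpl6 had 423, 186 and 225 CPM in cKO IL, against 24, 39.8 and 34.2 CPM in cKO CL (log2 fold change 3.09 ± 0.60 (SE), adjusted p = 0.0129). Rpl26, also of the large subunit, had 933, 323 and 454 CPM in cKO IL, against 53, 64.1 and 76.4 CPM in cKO CL (log2 fold change 3.14 ± 0.65 (SE), adjusted p = 0.0146). Many ribosomal protein genes have processed pseudogenes that share their sequence, and how reads that fit several places were counted is not given in the sources used here. Of 31 proteasome subunits, 11 rose (31 higher and 0 lower in the 6 libraries alone) and all 31 were positive, with a median of 2.10 (1.18 under abundant-gene scaling, with 1 higher and 0 lower). Psmd14, the deubiquitinase of the lid, had 87.2, 75.8 and 56.1 CPM in cKO IL, against 4.02, 7.3 and 9.54 CPM in cKO CL (log2 fold change 3.39 ± 0.67 (SE), adjusted p = 0.0131).

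Of 71 nuclear genes of oxidative phosphorylation, 20 rose (70 higher and 0 lower in the 6 libraries alone) and 70 lay higher in every IL library, with a median of 2.49 (1.53 under abundant-gene scaling, with 0 higher and 0 lower). Among the 4157 genes of at least 50 CPM, 775 rose and 2591 lay higher in every IL library. Uqcrb, of complex III, had 85.8, 81.1 and 106 CPM in cKO IL, against 6.5, 7.08 and 3.59 CPM in cKO CL (log2 fold change 3.99 ± 0.91 (SE), adjusted p = 0.022). Atp5b, the catalytic subunit of ATP synthase, had 446, 372 and 309 CPM in cKO IL, against 50.9, 90.5 and 80.3 CPM in cKO CL (log2 fold change 2.35 ± 0.55 (SE), adjusted p = 0.027). Of 21 genes of the TCA cycle and pyruvate dehydrogenase, 5 rose (21 higher and 0 lower in the 6 libraries alone) and all 21 were positive, with a median of 1.66 (0.75 under abundant-gene scaling, with 0 higher and 0 lower). Dld, shared by the 2-oxoacid dehydrogenases, had 115, 70.9 and 76.8 CPM in cKO IL, against 9.31, 14.9 and 14.9 CPM in cKO CL (log2 fold change 2.75 ± 0.59 (SE), adjusted p = 0.0176). In the fit of all libraries TCA cycle genes were called only somewhat more often than abundant genes. Of 21 glycolytic genes, 8 rose (14 higher and 0 lower in the 6 libraries alone), with a median of 0.97, close to that of all abundant genes, and 0.08 under abundant-gene scaling, with 6 higher and 0 lower. Tpi1, triose phosphate isomerase, had 269, 194 and 186 CPM in cKO IL, against 17.6, 20.9 and 23 CPM in cKO CL (log2 fold change 3.40 ± 0.59 (SE), adjusted p = 0.00912). Ldha, which makes lactate, had 394, 252 and 253 CPM in cKO IL, against 30.7, 53.6 and 39.5 CPM in cKO CL (log2 fold change 2.86 ± 0.58 (SE), adjusted p = 0.0137). Gapdh, often used as an internal reference, had 635, 315 and 429.9 CPM in cKO IL, against 68.2, 107 and 64.7 CPM in cKO CL (log2 fold change 2.52 ± 0.50 (SE), adjusted p = 0.0131), and so rose in these cells as well.

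Of 18 hypoxia targets, 6 rose (12 higher and 0 lower in the 6 libraries alone), with a median of 1.95 (1.03 under abundant-gene scaling, with 5 higher and 0 lower). Vegfa, the vascular growth factor, had 528, 899.6 and 449.7 CPM in cKO IL, against 25.1, 24.8 and 38.8 CPM in cKO CL (log2 fold change 4.40 ± 0.85 (SE), adjusted p = 0.0123). Hif1a, the oxygen-regulated factor itself, had 928, 670.1 and 450.3 CPM in cKO IL, against 31.5, 54.1 and 63.6 CPM in cKO CL (log2 fold change 3.78 ± 0.74 (SE), adjusted p = 0.0131). Bhlhe40, a repressor it induces, had 483, 569 and 403 CPM in cKO IL, against 17.2, 21.7 and 42 CPM in cKO CL (log2 fold change 4.17 ± 0.80 (SE), adjusted p = 0.0122). The lowest IL value was 11.6 times the highest CL value for Vegfa, 9.60 times for Bhlhe40 and 7.08 times for Hif1a. Of 20 antioxidant and iron genes under NRF2, 9 rose (15 higher and 0 lower in the 6 libraries alone), with a median of 1.62 (0.67 under abundant-gene scaling, with 3 higher and 0 lower). Fth1, the ferritin heavy chain that stores iron, had 5381, 9034 and 6030.0 CPM in cKO IL, against 328, 583 and 607 CPM in cKO CL (log2 fold change 3.75 ± 0.75 (SE), adjusted p = 0.0131). Gsr, glutathione reductase, had 106, 87.6 and 63.4 CPM in cKO IL, against 8.17, 6.81 and 5.43 CPM in cKO CL (log2 fold change 3.66 ± 0.70 (SE), adjusted p = 0.0123). Slc7a11, the cystine importer that also belongs to the ATF4 list, had 128, 156 and 63.8 CPM in cKO IL, against 24.1, 19.5 and 8.06 CPM in cKO CL (log2 fold change 2.75 ± 0.56 (SE), adjusted p = 0.014). Ferritin genes also have processed pseudogenes. Of 24 ATF4 targets and unfolded protein response genes, 6 rose (14 higher and 0 lower in the 6 libraries alone), with a median of 0.97 (0.03 under abundant-gene scaling, with 3 higher and 0 lower). Hspa5, the chaperone BiP of the endoplasmic reticulum, had 2529, 1736 and 1540.4 CPM in cKO IL, against 242, 511 and 504 CPM in cKO CL (log2 fold change 2.21 ± 0.48 (SE), adjusted p = 0.0187). The ATF4 and unfolded protein response genes were called about as often as abundant genes.

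Of 14 heat shock genes, 2 rose (7 higher and 2 lower in the 6 libraries alone), with a median of 1.12 (0.22 under abundant-gene scaling, with 0 higher and 1 lower). Hspe1 and Hspd1, the mitochondrial chaperonin pair, rose by 2.87 and 2.40 on the log2 scale (adjusted p = 0.0338 and 0.0463). Heat shock genes were called no more often than abundant genes. Immediate early genes, which dissociation of tissue is known to induce, were described for that reason too. Of 21, 2 rose (4 higher and 0 lower in the 6 libraries alone), and their median of 0.10 turned to -0.81 under abundant-gene scaling, with 0 higher and 5 lower. The 2 that rose were Nr4a2, an orphan nuclear receptor, with 97.9, 165 and 81 CPM in cKO IL, against 14.9, 19.3 and 28.6 CPM in cKO CL (log2 fold change 2.45 ± 0.58 (SE), adjusted p = 0.0275), and the stress gene Ier3, with 186, 102 and 120.4 CPM in cKO IL, against 14.7, 48 and 35.8 CPM in cKO CL (log2 fold change 2.05 ± 0.56 (SE), adjusted p = 0.0429). Jund, a Jun family factor, lay lower in every IL library, with 211, 262 and 239 CPM in cKO IL, against 433, 548 and 699 CPM in cKO CL (log2 fold change -1.24 ± 0.45 (SE), adjusted p = 0.118). The summed level of the list was 13977 to 15779.5 CPM in cKO IL and 8086 to 17177 CPM in cKO CL.

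Genes of proliferation were called higher about as often as abundant genes, although a larger share of them lay higher in every IL library. Of 32 cell cycle and replication genes, 7 rose (31 higher and 0 lower in the 6 libraries alone) and 29 lay higher in every IL library, with a median of 1.91 (0.90 under abundant-gene scaling, with 0 higher and 0 lower). Among the 4157 genes of at least 50 CPM, 775 rose and 2591 lay higher in every IL library. Mki67, a marker of cycling cells, had 789, 329 and 684 CPM in cKO IL, against 48.8, 21.6 and 53.2 CPM in cKO CL (log2 fold change 3.87 ± 0.94 (SE), adjusted p = 0.0293). Top2a, the topoisomerase of mitosis, had 192, 72.2 and 178 CPM in cKO IL, against 25.1, 9.99 and 23.1 CPM in cKO CL (log2 fold change 2.93 ± 0.63 (SE), adjusted p = 0.0168). Cenpe, a kinetochore motor, had 113, 55.6 and 94.7 CPM in cKO IL, against 18, 10.5 and 13 CPM in cKO CL (log2 fold change 2.67 ± 0.58 (SE), adjusted p = 0.0177). In all 3 genes, library B was the lowest of its group in IL and in CL. Of 23 genes of the matrix, its proteases and their inhibitors, 10 rose (14 higher and 0 lower in the 6 libraries alone), with a median of 2.34 (1.47 under abundant-gene scaling, with 8 higher and 0 lower). The 4 with the lowest p, Tgfbi, Ecm1, Thbs1 and Spp1, have been given above. Of 17 trophic and growth factors, 2 rose, Vegfa and Osm (4 higher and 3 lower in the 6 libraries alone), with a median of -0.63 (-1.62 under abundant-gene scaling, with 1 higher and 1 lower). Osm, the cytokine oncostatin M, had 204, 214 and 204 CPM in cKO IL, against 17, 36.9 and 57.6 CPM in cKO CL (log2 fold change 2.48 ± 0.59 (SE), adjusted p = 0.0282). Pdgfb, a growth factor for pericytes, lay lower in every IL library without passing the test, with 113, 139 and 188 CPM in cKO IL, against 282, 468 and 352 CPM in cKO CL (log2 fold change -1.32 ± 0.51 (SE), adjusted p = 0.132). Areg of this list had no row in the table, and Gzma of the T cell list had too few counts to be tested.

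**Figure D3:**
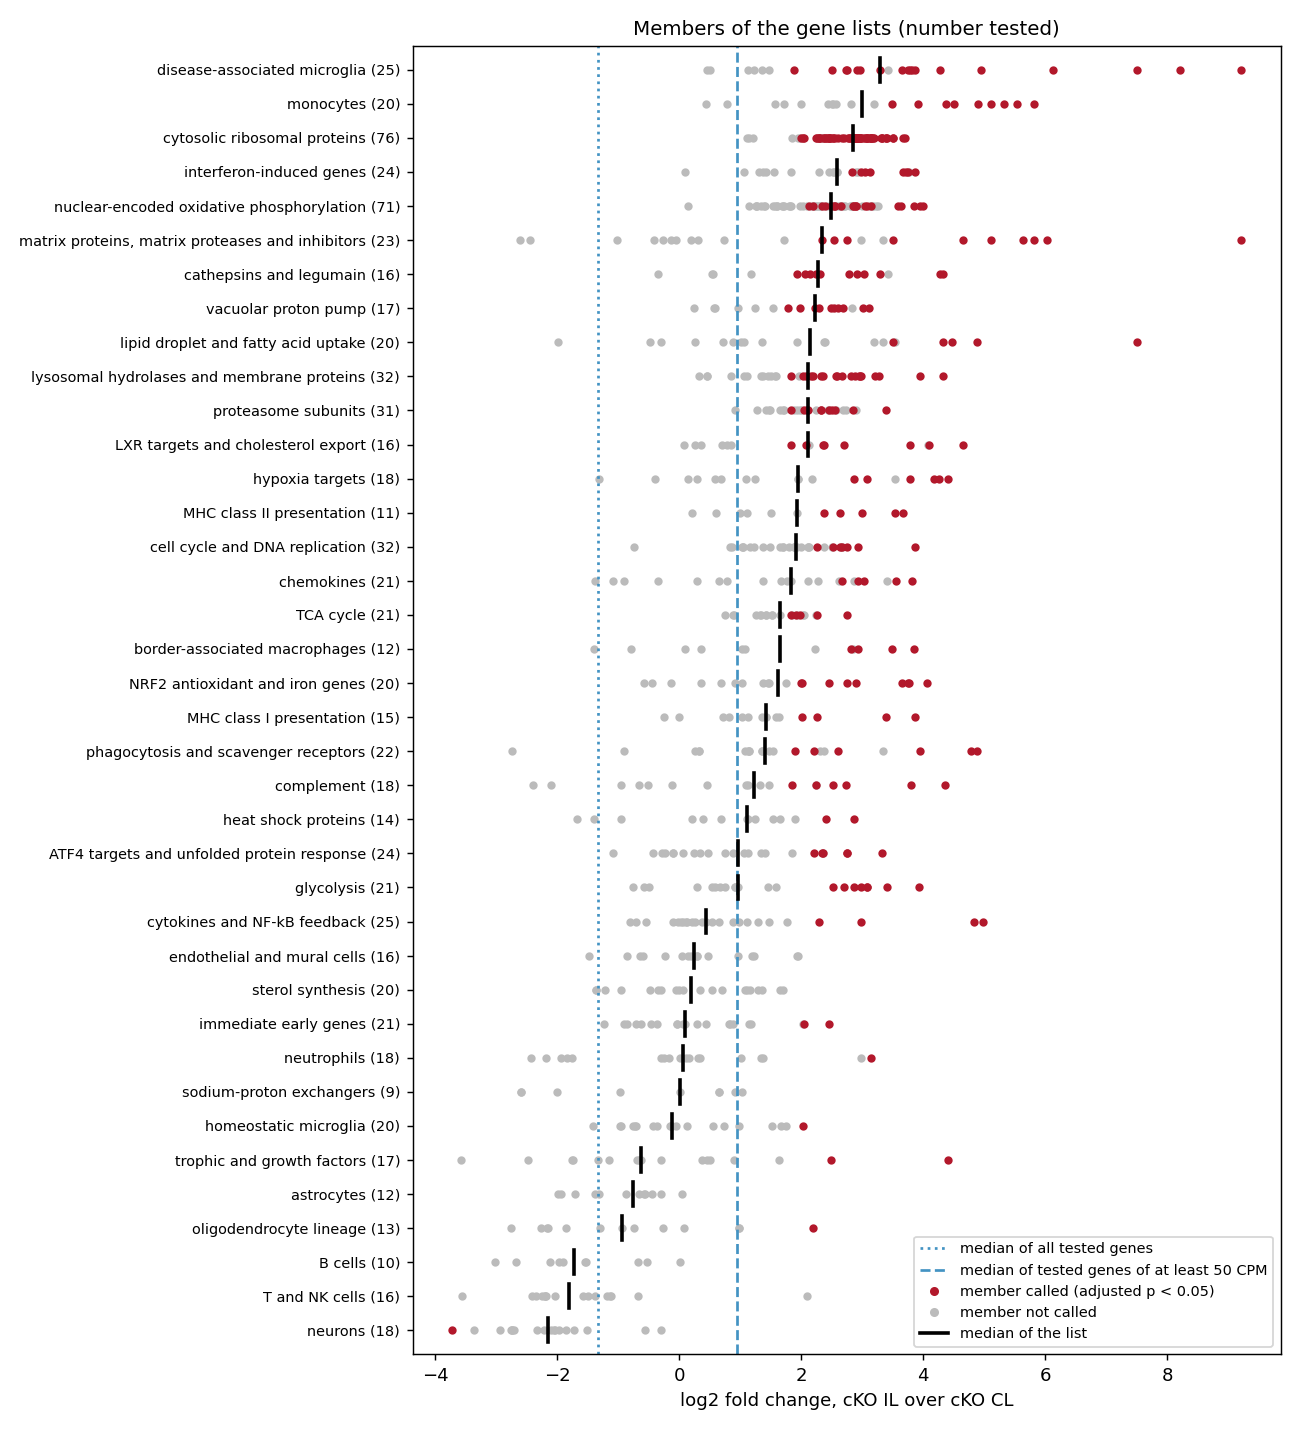
Log2 fold change (cKO IL over cKO CL, horizontal) of each tested member of the 38 gene lists, ordered by the median of the list, with the number tested in brackets. Members called are red, those not called grey, black bars are list medians, and the lines mark the medians of all tested genes (-1.33) and of genes of at least 50 CPM (0.94). The only gene on the negative side called in the 12-library fit is Chga in the neuron list.

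Markers of other cells that the sort could hold were read next to these lists. Of 20 monocyte genes, 9 rose and all 20 were positive (19 higher and 0 lower in the 6 libraries alone), with a median of 3.0 (1.94 under abundant-gene scaling, with 8 higher and 0 lower). Their summed level was 15315 to 40159.5 CPM in cKO IL and 710.1 to 1613 CPM in cKO CL, and none of the 20 was at 0 in all 6 libraries. Thbs1, Lyz2 and Chil3 of the 15 largest rises are members, and activated microglia also make Thbs1, Fn1 and Lyz2. Cd44, an adhesion receptor, had 1002, 1201 and 530.1 CPM in cKO IL, against 33.4, 42 and 44.7 CPM in cKO CL (log2 fold change 4.51 ± 0.69 (SE), adjusted p = 0.0087). Emilin2, an extracellular glycoprotein, had 904, 1154 and 560.4 CPM in cKO IL, against 26.7, 70.1 and 76.5 CPM in cKO CL (log2 fold change 3.92 ± 0.65 (SE), adjusted p = 0.00912). Of the defining markers, named after their values were seen, Ccr2, the receptor of CCL2, had 726, 285 and 136 CPM in cKO IL, against 16.1, 8.23 and 31.2 CPM in cKO CL (log2 fold change 4.37 ± 0.91 (SE), adjusted p = 0.0151). Ly6c2 had 12.5, 19.6 and 21.2 CPM in cKO IL, against 5.09, 1.65 and 2.51 CPM in cKO CL and did not pass the test (log2 fold change 2.53 ± 1.08 (SE), adjusted p = 0.166). Monocyte genes thus moved with the disease-associated, lipid and matrix genes, and the order of the IL libraries differed among them: Ccr2, Thbs1, Lyz2 and Chil3 were highest in A, Cd44 and Emilin2 in B, and Ly6c2 in C. Their part in those results was not tested.

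Of 12 genes of border-associated macrophages, 4 rose (7 higher and 1 lower in the 6 libraries alone), with a median of 1.65 (0.69 under abundant-gene scaling, with 2 higher and 1 lower) and summed levels of 2185 to 3831 CPM in cKO IL and 859 to 1539.9 CPM in cKO CL. F13a1, a coagulation factor subunit that monocytes also carry, had 932, 645 and 311 CPM in cKO IL, against 40.3, 77.7 and 51.1 CPM in cKO CL (log2 fold change 3.48 ± 0.64 (SE), adjusted p = 0.0109). Siglec1, a sialic acid receptor of macrophages, had 290.1, 197 and 424 CPM in cKO IL, against 27.8, 44.1 and 56.9 CPM in cKO CL (log2 fold change 2.82 ± 0.56 (SE), adjusted p = 0.0131). Ms4a7, a tetraspan protein of these cells, had 126, 122 and 116 CPM in cKO IL, against 6.57, 5.98 and 12.7 CPM in cKO CL (log2 fold change 3.84 ± 0.84 (SE), adjusted p = 0.0186). Pf4, platelet factor 4, passed narrowly with 70.8, 45.3 and 7.9 CPM in cKO IL, against 4.76, 6.53 and 4.95 CPM in cKO CL (adjusted p = 0.0499). Of 18 neutrophil genes, 1 rose, Il1r2, the decoy receptor of interleukin-1, with 49, 81.9 and 51.2 CPM in cKO IL, against 3.48, 9.55 and 7.42 CPM in cKO CL (log2 fold change 3.15 ± 0.67 (SE), adjusted p = 0.0165), and the list median of 0.07 turned to -0.91 under abundant-gene scaling. The 6 libraries alone gave 4 higher and 1 lower, and abundant-gene scaling 0 and 0. Ly6g, the defining marker, stood at 0.253, 0.207 and 1.47 CPM in cKO IL, against 6.97, 1.81 and 1.72 CPM in cKO CL. The summed level was 599 to 944 CPM in cKO IL and 379.9 to 654 CPM in cKO CL.

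None of the 16 T and NK cell genes was called by edgeR in the 12-library fit, with 3 at an unadjusted p under 0.05 (DESeq2 0 higher and 1 lower, voom 1 higher and 6 lower), and none of the 10 B cell genes, with 0 at an unadjusted p under 0.05 (DESeq2 0 higher and 0 lower, voom 0 higher and 4 lower). In the 6 libraries alone edgeR called 1 T and NK cell genes higher and 3 lower, and 0 B cell genes higher and 0 lower. With abundant-gene scaling it called 0 higher and 0 lower, and 0 higher and 0 lower. The lists had medians of -1.80 and -1.73 and summed levels of 80 to 93.1 and 50.2 to 84.2 CPM in cKO IL, against 62.8 to 96.8 and 108 to 145 CPM in cKO CL. Of 18 neuronal genes, Chga was called lower in the 12-library fit and all 18 were negative, with a median of -2.15 (-3.23 under abundant-gene scaling, with 0 higher and 3 lower). In the 6 libraries alone 0 were called higher and 12 lower, and DESeq2 called 0 higher and 12 lower. Their summed level was 62.7 to 67.8 CPM in cKO IL, against 203 to 280.2 CPM in cKO CL. Map2, a protein of the neuronal cytoskeleton, had 7.22, 6.87 and 9.58 CPM in cKO IL, against 38.4, 23.1 and 24.1 CPM in cKO CL (log2 fold change -1.85 ± 0.56 (SE), adjusted p = 0.0646). None of 12 astrocyte genes was called by edgeR in the 12-library fit, with 3 at an unadjusted p under 0.05 (DESeq2 0 higher and 3 lower, voom 0 higher and 3 lower), against 0 higher and 3 lower in the 6 libraries alone. Their median was -0.76 (-1.77 under abundant-gene scaling, with 0 higher and 1 lower), and their summed level 410.0 to 861 CPM in cKO IL and 601 to 1054 CPM in cKO CL. Of 13 genes of the oligodendrocyte lineage, 1 rose (3 higher and 5 lower in the 6 libraries alone, 0 and 2 under abundant-gene scaling). It was Cspg4, the proteoglycan NG2, with 146, 109 and 186 CPM in cKO IL, against 25.7, 21.2 and 48.9 CPM in cKO CL (log2 fold change 2.20 ± 0.59 (SE), adjusted p = 0.0426), while Pdgfra, the growth factor receptor of the same precursor cells, stood at 2.74, 3.35 and 6 CPM in cKO IL, against 27.1, 16.6 and 14.6 CPM in cKO CL (log2 fold change -2.27 ± 0.79 (SE), adjusted p = 0.101). None of 16 endothelial and mural genes was called by edgeR in the 12-library fit, with 0 at an unadjusted p under 0.05 (DESeq2 0 higher and 0 lower, voom 1 higher and 0 lower), against 4 higher and 0 lower in the 6 libraries alone. Their median of 0.24 turned to -0.67 under abundant-gene scaling, with 0 higher and 0 lower. Vwf, von Willebrand factor of endothelium, was uneven, with 69.8, 825 and 80.8 CPM in cKO IL, against 43.1, 149 and 60 CPM in cKO CL, the highest value being in cKO IL B. No gene of these 9 lists of other cells was at 0 in all 6 cKO libraries.

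The 15 largest falls among genes of at least 10 CPM in the CL mean, numbered gene models aside, ran from -3.41 to -4.27 on the log2 scale, with IL values of 0.122 to 6.69 CPM and CL values of 5.11 to 106.9 CPM. Pax2, a transcription factor of kidney and midbrain development (chr19:44756045-44837871), had 1.52, 0.415 and 0.49 CPM in cKO IL, against 17.8, 12.4 and 16.8 CPM in cKO CL (log2 fold change -4.27 ± 1.09 (SE), adjusted p = 0.0342). Of the others, Col1a1, a chain of type I collagen, had 3.86, 6.69 and 3 CPM in cKO IL, against 37.1, 107 and 34.1 CPM in cKO CL (log2 fold change -3.71 ± 0.88 (SE), adjusted p = 0.0275). Col11a1, a chain of type XI collagen, had 1.41, 1.07 and 1.13 CPM in cKO IL, against 17.9, 10.7 and 12.8 CPM in cKO CL (log2 fold change -3.51 ± 0.81 (SE), adjusted p = 0.0232). Slit3, a secreted guidance protein, had 1.77, 2.49 and 3.03 CPM in cKO IL, against 25.7, 43.4 and 18.4 CPM in cKO CL (log2 fold change -3.58 ± 0.77 (SE), adjusted p = 0.0167). Every one of these CL values lay above every IL value.

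Chga, the granule protein chromogranin A of neurons and endocrine cells, had 1.3, 1.66 and 1.53 CPM in cKO IL, against 10.5, 15.2 and 33.6 CPM in cKO CL (log2 fold change -3.72 ± 0.86 (SE), adjusted p = 0.0235). Its highest value, in cKO CL C, stood beside other secretory and choroid plexus genes of that library. Gh, growth hormone of the pituitary, had 0.505, 0.0296 and 0.0306 CPM in cKO IL, against 1.47, 0.494 and 211 CPM in cKO CL, and Ttr, transthyretin of the choroid plexus, had 2.6, 299.5 and 99.4 CPM in cKO IL, against 42.5, 48.4 and 1219.8 CPM in cKO CL. Their part in the Chga result was not tested, and CL libraries A and B were also above all IL libraries for Chga. Other members of the 15 are Igdcc4 and Dscaml1, cell adhesion molecules of the immunoglobulin family, Epha10, an ephrin receptor, Slc28a3, a nucleoside transporter, Mmp17, a membrane-bound metalloprotease, Celf5, a neuronal RNA-binding protein, and Aox3, an aldehyde oxidase. With them stand Tmc2, a channel protein of hair cells, Efcab6, an EF-hand protein, and Ppp1r36, a phosphatase regulator. Their log2 fold changes lay between -3.80 and -3.41.

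Of the genes that fell, 9 of 183 had a mean of at least 50 CPM over the 12 libraries. Soga1 and Col27a1 had the highest CL levels among them and were named after their values were seen. Soga1, a regulator of autophagy in the liver, had 592, 624 and 740.0 CPM in cKO IL, against 2171, 3525 and 1957 CPM in cKO CL (log2 fold change -1.97 ± 0.54 (SE), adjusted p = 0.0463). Col27a1, a fibrillar collagen chain, had 116, 108 and 189 CPM in cKO IL, against 946, 1219 and 899 CPM in cKO CL (log2 fold change -2.89 ± 0.64 (SE), adjusted p = 0.0199). The protein-coding genes called lower were long: their median span in the genome was 87.6 kb, against 22.6 kb for those called higher and 18.8 kb for all tested. Their median exonic length was 8.91 kb, against 3.91 kb and 3.74 kb. The share of counts in sensory receptor genes and numbered gene models was higher in each cKO CL library than in each cKO IL library, and depth was lower. Their part in the falls was not tested. When every library was thinned to 2091512 counts, 642 genes rose and 484 fell, and without gene models and sensory receptors 965 rose and 452 fell.

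**Figure D4:**
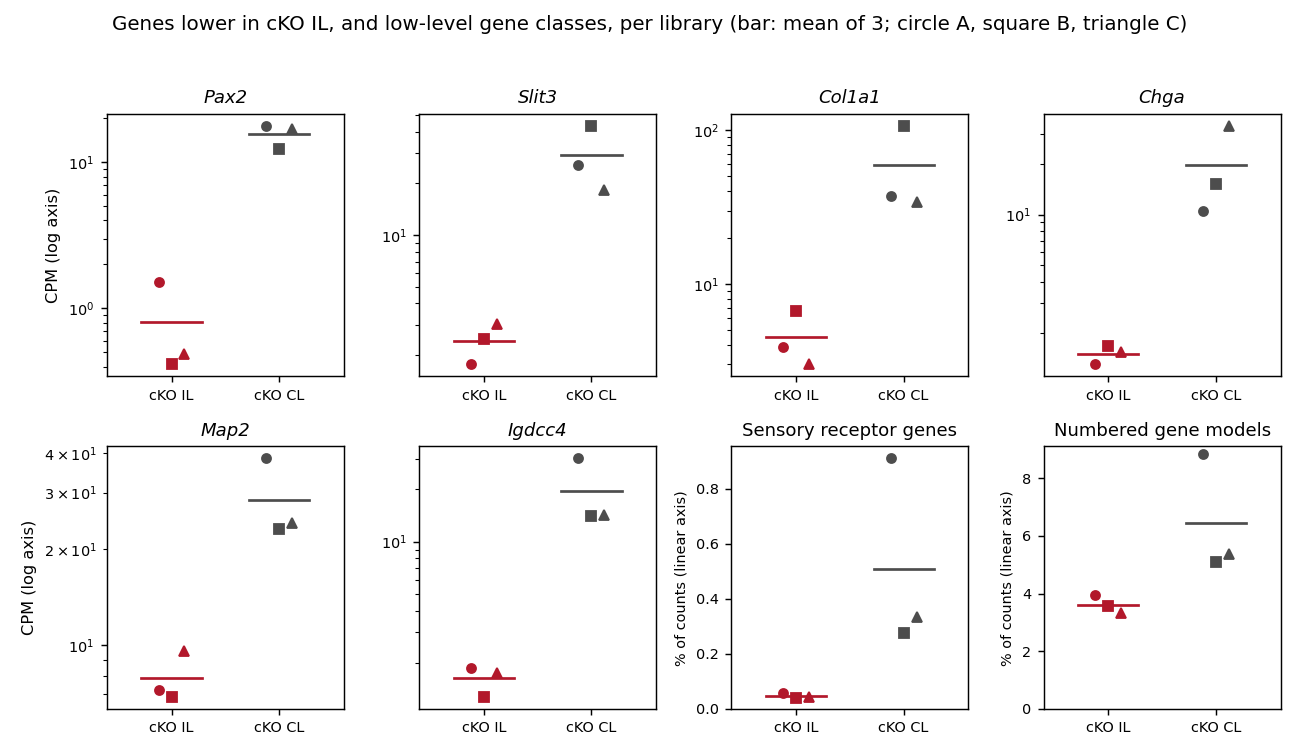
Levels in CPM (log axes of different ranges) of 6 genes lower in cKO IL (left in each panel) than in cKO CL (right), and the percentage of counts in sensory receptor genes and in numbered gene models (linear axes from 0) in the same 6 libraries. Map2 did not pass the test, and the other 5 genes did. The sensory share is 0.0398% to 0.0588% in cKO IL and 0.275% to 0.909% in cKO CL.

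The WT mice ask whether this response differs without the deletion. In WT, 192 genes rose and 25 fell in IL relative to CL (0.538% and 0.0701% of the 35674). Of the 1050 genes that rose in cKO, 1045 had a positive WT change and 155 were called higher in WT too, and of the 183 that fell, 180 had a negative WT change and 8 were called lower. The interaction, which asks whether the change in cKO differs from that in WT, called 0 genes (edgeR, 0%), with 1355 at an unadjusted p under 0.05. DESeq2 called 4 and voom with quality weights 0, and edgeR called 3 without WT CL F. A gene called in cKO and not in WT is thus not shown to differ between them. The summed disease-associated and monocyte levels of the WT libraries D go against their labels. Without both libraries D, 2069 genes rose and 469 fell in WT, and 3151 rose and 435 fell in cKO. In the interaction edgeR again called 0, with 1030 at an unadjusted p under 0.05. The numbers of calls in the 2 genotypes, which differ several times over in the fit of all 12 libraries, were thus much closer without these libraries. As libraries D were picked by their values, the closer numbers are no test of a difference between genotypes.

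For the genes with the largest rises, the WT values spread widely over the libraries. Gpnmb had 5.13, 1339 and 6303 CPM in WT IL, against 12.2, 5.85 and 2.64 CPM in WT CL, with log2 fold changes of 8.20 in cKO and 8.49 in WT (interaction adjusted p = 1). Spp1 had 9.38, 1255 and 4686 CPM in WT IL, against 42.7, 1.35 and 6.75 CPM in WT CL (log2 fold change 9.21 in cKO and 6.85 in WT, interaction adjusted p = 1). In both genes the library labelled WT IL D lay within the WT CL range. Ecm1 had 22, 126 and 389 CPM in WT IL, against 56.5, 7.35 and 11.1 CPM in WT CL, with log2 fold changes of 6.03 in cKO and 2.83 in WT (interaction adjusted p = 1).

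The 10 genes of lowest interaction p, none called, included several that were high in a single WT CL library. Ifit1, an interferon-induced gene, had 22.9, 18.2 and 19.1 CPM in cKO IL, against 3.02, 4.23 and 2.71 CPM in cKO CL, and 1.63, 3.76 and 7.81 CPM in WT IL, against 161, 1.05 and 2.93 CPM in WT CL (log2 fold change 2.59 in cKO and -3.65 in WT, interaction adjusted p = 1). The highest value was that of WT CL D. Ifit3, its neighbour in function, had 5.77, 5.77 and 10.6 CPM in WT IL, against 114, 5.25 and 0 CPM in WT CL in the same order. Ahr, the aryl hydrocarbon receptor, rose in cKO with 58.3, 82.1 and 24.1 CPM in cKO IL, against 9.78, 8.07 and 8.78 CPM in cKO CL (log2 fold change 2.63 ± 0.66 (SE), adjusted p = 0.0338), and had 8.62, 27 and 21.2 CPM in WT IL, against 26.3, 9.75 and 55.7 CPM in WT CL (interaction 3.31 ± 0.91 (SE), adjusted p = 1). Rpl29, a ribosomal protein, rose in cKO with 354, 225 and 374 CPM in cKO IL, against 32.9, 22.1 and 39.8 CPM in cKO CL (log2 fold change 3.33 ± 0.90 (SE), adjusted p = 0.0428), and had 8.22, 11.7 and 35.7 CPM in WT IL, against 90.3, 12.7 and 0.587 CPM in WT CL (interaction 4.24 ± 1.22 (SE), adjusted p = 1). Gh had 0.699, 0.205 and 589.7 CPM in WT IL, against 0.97, 0.3 and 64.3 CPM in WT CL, its highest WT values being those of both libraries F. The others were Cdh1, Chga, Ttr, Mfap1a and Scg2.

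Over the 38 lists, the cKO median was above the WT median for 26. The widest gap was in interferon-induced genes, with a median of 2.59 in cKO and 0.46 in WT. The summed WT levels of that list were 416, 545 and 908 CPM in IL, against 1051, 235 and 178 CPM in CL, so that 1 WT CL library lay above all WT IL libraries, and the difference between the medians was not tested. Disease-associated genes had medians of 3.30 in cKO and 2.55 in WT (18 and 12 called higher), lysosomal genes 2.12 and 1.78 (19 and 5), and ribosomal proteins 2.85 and 1.89 (63 and 0). Without both WT libraries D the cKO median was above the WT median for 17 of the 38 lists. The medians were then 3.0 in cKO and 2.42 in WT for interferon-induced genes, 3.68 and 3.48 for disease-associated genes (22 called higher in either genotype), 2.53 and 2.70 for lysosomal genes and 3.25 and 3.07 for ribosomal proteins (73 and 66 called higher). The order of the genotypes in these medians thus rested on the libraries D for lysosomal genes, and the gap narrowed for the other 3. Libraries D were picked because the summed levels of their disease-associated and monocyte genes went against their labels, although single members went both ways. A higher WT median of disease-associated genes without them was therefore built into the choice, and the difference between genotypes was not tested by it. None of the list members was called in the interaction of the 12-library fit.

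**Figure D5:**
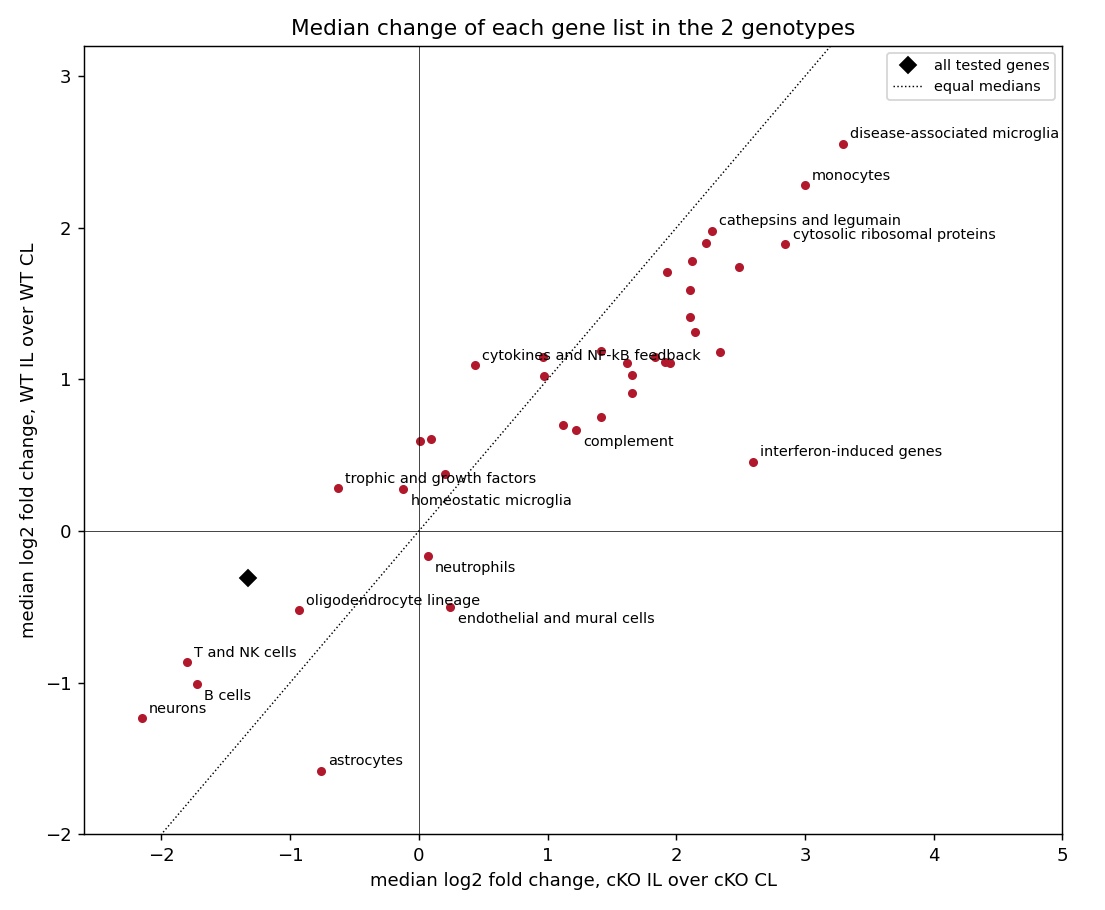
Median log2 fold change of each of the 38 gene lists in cKO (IL over CL, horizontal) against WT (IL over CL, vertical), with the median of all tested genes as a diamond and a dotted line of equal medians. Interferon-induced genes lie farthest below the line, at 2.59 in cKO and 0.46 in WT, with all 12 libraries in the fit.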

How the data were processed

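The authors prepared libraries with a stranded total RNA kit of low input (SMARTer Pico V2), sequenced them paired-end, trimmed them, filtered out ribosomal and mitochondrial reads, aligned the rest to mm10 (GRCm38) with STAR (version 2.5.3a, run in Partek Flow, version 8.0), and deposited raw read counts per gene (53801 genes, 12 libraries). The annotation release, the strand setting and the handling of reads that fit several places are not given in the sources used here. Columns name a group and a number, and libraries are lettered in the order of that number.

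Genes passing filterByExpr (35674) were scaled by TMM (factors 0.618 to 1.64) and tested with edgeR 4.0.16's quasi-likelihood test (two-sided, no block) in R 4.3.3 with the 4 groups of 12 libraries fitted together. The Benjamini-Hochberg adjustment ran over all tested genes, and calls were made under an adjusted p of 0.05. Levels are counts scaled to library size (CPM) after TMM. Standard errors were derived from the test, as the size of the log2 fold change over the square root of its quasi-likelihood F statistic. The test was checked on drawn counts with known changes. The draw gave all genes the same spread and all groups the same levels apart from the changed genes. It therefore did not cover the uneven spread between the groups of these data. A symbol on several rows (127 of them) was read from the row whose ID carries that symbol in GENCODE vM21, and positions are from GENCODE vM21 (53706 IDs matched). The members and the 38 lists were chosen with earlier results of these data known, so that lists are described by counts and medians. Genes named are the 15 largest changes per direction among called genes of at least 10 CPM with no overlap (gene models left out), the 4 of lowest p of each list, the targeted gene and P2ry12, and the 10 of lowest interaction p, of which some are given in groups; genes named after their values were seen are said to be so. The targeted gene and some other genes that this rule names are not reported here. Promoters are RefSeq's (GRCm38.p6).

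The results were recomputed with DESeq2 1.42.0, with limma 3.58.1 (voom with quality weights), and with RLE, total counts, TMM from genes of at least 50 CPM, no filter, at least 10 counts in every library, the 6 cKO libraries alone, no gene models or sensory receptors, thinning to 2091512 counts, a replicate block, and each library left out. The leave-one-out, block and abundant-gene scaling within the 6 cKO libraries, the list medians under other scalings, and the fit without both WT libraries D, were added after seeing the data.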

Additional observations from a re-analysis of the deposited data

How the results depend on the processing

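In the 12-library fit 1050 genes rose and 183 fell. DESeq2 called 2029 higher and 4501 lower (4 in the interaction), and voom with quality weights 5277 and 10173. RLE scaling gave 629 higher, total counts 301 higher and 1127 lower, and TMM from abundant genes 224 and 1039. Without a filter 2365 rose and 17 were called in the interaction, and with at least 10 counts in every library 1631 fell. The 6 cKO libraries alone gave 6175 and 4984, thinned libraries 642 and 484, and leaving out gene models and sensory receptors 452 lower. Without both WT libraries D, chosen after seeing the data, 3151 rose and 435 fell. Leaving out 1 library gave 0 to 4288 higher, 0 to 797 lower, 0 to 3 in the interaction and a median of -1.54 to -0.65 over tested genes. That median was -1.33, and moved to -2.26 with total counts, -2.36 with TMM from abundant genes, -0.038 with at least 10 counts in every library and -0.51 without gene models. Within the 6 cKO libraries, leaving out 1 gave 4574 to 5931 higher and 2547 to 6714 lower, and TMM from abundant genes 2126 and 13540. For the 175 genes named, no call turned direction in any of 4152 values, 618 lost and 249 gained the call. These genes were mostly picked by a large change or a low p in the same libraries, which favours a steady direction. The medians of 6 of 38 lists changed sign with the scaling. The causes were not tested.

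With the number in the column names as a replicate block, 701 genes rose, 86 fell and 0 were called in the interaction, and within the 6 cKO libraries 5881 rose and 5735 fell. Deviations of same-numbered cKO libraries correlated at 0.0588 to 0.209, and of differently numbered ones at -0.123 to 0.0486, so each library correlated best with its own number, but no source used here ties the numbers to animals and not every pair was over 0.1. In WT, same-numbered libraries gave -0.13 to 0.147 and differently numbered ones -0.186 to 0.219, so the number did not set pairs apart there.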
